A study of Mus musculus with 9 samples.

Results

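Interferon-gamma induced GTPases are cytosolic defence proteins of the IRG (immunity-related GTPase) and GBP (guanylate-binding protein) families. The 9 genes chosen were Igtp, Irgm1, Irgm2 and Iigp1 of the IRG family and Gbp2, Gbp3, Gbp5, Gbp7 and Gbp9 of the GBP family. A gene was measured where a probe set of the array was annotated to that gene symbol alone, and where a gene had several such probe sets the one with the highest mean over all 9 arrays was used. By this rule 8 of the 9 genes were measured, each by 1 probe set, among 22180 genes in all. Gbp2 lay on a probe set annotated to both Gbp2 and Gbp2b, so no value is given for it.

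The arrays measured RNA of long-term haematopoietic stem cells (LT-HSC), sorted from bone marrow of the C57BL/6 strain by lineage markers (absent), c-kit and Sca-1 (present), and CD135 and CD34 (absent). Jak2VF_Ezh2KO names the MxCre Jak2VF/+ EZH2-/- mice, Jak2VF names the MxCre Jak2VF/+ mice and WT names the control mice, with 3 biological replicates and 1 array for each. Jak2VF is the V617F form of Jak2, the activated kinase of myeloproliferative neoplasms, and Ezh2 is the main methyltransferase of Polycomb complex 2. All mice, WT controls included, were given pI-pC at the age of 4 weeks (300 µg in each of 5 injections), and marrow was taken 12 weeks later. MxCre is Cre recombinase under the interferon-inducible Mx1 promoter, and pI-pC is a double-stranded RNA mimic that turns this promoter on through type I interferon. The labels do not say whether the control mice carried MxCre, and any effect of Cre itself cannot be told apart from the mutant alleles in a comparison with WT.

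Interferon-gamma binds the receptor chains Ifngr1 and Ifngr2, which signal through the kinases Jak1 and Jak2. Its target genes are known for GAS (gamma-activated sequence) elements and for interferon-stimulated response elements (ISRE), the second of which Irf1 binds. IRG proteins load onto the vacuoles of intracellular microbes, where Iigp1 acts as an effector while Irgm1, Irgm2 and Igtp (also called Irgm3) sit on the cell's own membranes and hold effectors in the inactive state. GBPs gather on vacuoles and on bacteria that have left them and promote inflammasome activation. In mice Irgm1 is also known for restraining the proliferation of haematopoietic stem cells under interferon.

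The sequences before the gene starts are shown because they hold the letters through which this induction is known to run. RefSeq promoter windows (GRCm38.p6) were found for 7 of the 9 members, namely Igtp, Irgm2, Irgm1, Gbp2, Gbp3, Gbp5 and Gbp7. The 250 bases before the start are printed 5′ to 3′ on the gene's strand for the measured genes among them, at chr11:58199306-58199555 (plus strand) for Igtp, chr11:58214727-58214976 (plus strand) for Irgm2, chr11:48871421-48871670 (minus strand) for Irgm1, chr3:142559794-142560043 (plus strand) for Gbp3, chr3:142496684-142496933 (plus strand) for Gbp5 and chr3:142530086-142530335 (plus strand) for Gbp7. Capitals mark matches to GAS letters (TTCNNNGAA) or ISRE letters (GAAANNGAAA, or TTTCNNTTTC on the opposite strand), where N is any base.
Igtp: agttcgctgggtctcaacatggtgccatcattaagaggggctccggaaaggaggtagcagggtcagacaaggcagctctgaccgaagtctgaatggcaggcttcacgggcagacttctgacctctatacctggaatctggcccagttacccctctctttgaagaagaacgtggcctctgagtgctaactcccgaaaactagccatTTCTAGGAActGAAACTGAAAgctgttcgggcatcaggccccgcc
Irgm2: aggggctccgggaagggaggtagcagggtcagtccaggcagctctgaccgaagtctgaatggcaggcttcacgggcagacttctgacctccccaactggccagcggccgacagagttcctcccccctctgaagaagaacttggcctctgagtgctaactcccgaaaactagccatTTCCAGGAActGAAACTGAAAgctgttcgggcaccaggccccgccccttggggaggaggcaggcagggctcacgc
Irgm1: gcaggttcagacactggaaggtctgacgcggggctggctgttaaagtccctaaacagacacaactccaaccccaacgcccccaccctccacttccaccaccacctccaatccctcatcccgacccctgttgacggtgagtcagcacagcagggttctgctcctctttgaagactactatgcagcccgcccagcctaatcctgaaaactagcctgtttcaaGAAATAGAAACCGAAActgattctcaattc
Gbp3: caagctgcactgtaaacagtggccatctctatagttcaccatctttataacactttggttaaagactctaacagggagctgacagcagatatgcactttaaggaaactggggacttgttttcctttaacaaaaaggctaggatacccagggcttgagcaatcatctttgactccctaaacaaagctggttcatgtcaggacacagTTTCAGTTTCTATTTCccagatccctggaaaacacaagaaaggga
Gbp5: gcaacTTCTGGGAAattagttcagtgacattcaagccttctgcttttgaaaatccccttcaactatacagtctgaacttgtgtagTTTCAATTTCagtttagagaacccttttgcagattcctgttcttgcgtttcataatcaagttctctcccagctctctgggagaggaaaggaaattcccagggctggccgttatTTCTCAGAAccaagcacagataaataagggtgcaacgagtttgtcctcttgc
Gbp7: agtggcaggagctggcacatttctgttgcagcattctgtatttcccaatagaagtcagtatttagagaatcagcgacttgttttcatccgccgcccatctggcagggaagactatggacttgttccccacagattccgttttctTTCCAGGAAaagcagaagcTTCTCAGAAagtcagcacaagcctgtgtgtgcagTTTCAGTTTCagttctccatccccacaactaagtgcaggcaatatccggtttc
The 7 genes had 8 windows and are counted by gene, while the shares of all genes are by window. All 7 genes held ISRE letters, against 2.98% of 32851 windows of all genes, and 4 held GAS letters, against 7.02% of windows. Both kinds stood before Igtp, Irgm2, Gbp5 and Gbp7, against 0.332% of windows. In Igtp the GAS match began 45 bases and the ISRE match 34 bases before the start, and in Irgm2 they began 75 and 64 bases before it, with 2 bases between the matches in both genes. Searched as 1 motif (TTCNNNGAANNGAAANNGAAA, both strands), a motif chosen after these sequences were read, this arrangement was in 5 of the 32851 windows, those of Igtp, Irgm2, Tgtp1, Tgtp2 and Gm12185. The windows of Igtp and Irgm2, which are neighbours in the gene order, were identical at 197 of 286 aligned positions (68.9%). This was the highest identity among the members' windows, followed by Igtp and Irgm1 at 55.4%. The second value is near those of pairs of an IRG and a GBP gene, 47.6% to 52.9%, and Irgm1 and Irgm2 stood at 50.7%. Irgm1 held 2 overlapping ISRE matches, 30 and 24 bases before its start, and Gbp3 held 2 overlapping ones at 45 and 39 bases. A second annotated start of Gbp3 had neither kind in its window. Gbp5 had GAS matches at 245 and 52 bases and an ISRE match at 165 bases, and Gbp7 had GAS matches at 106 and 87 bases and an ISRE match at 53 bases. A match in letters is a description of the sequence and no evidence of binding.

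**Figure D1:**
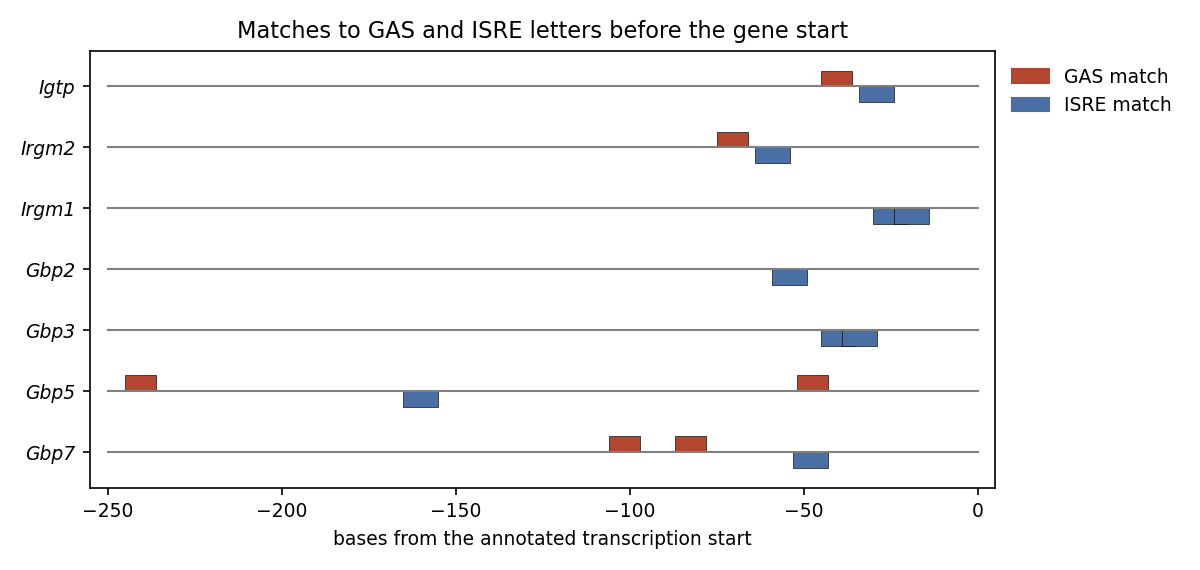
Positions of GAS (red) and ISRE (blue) letter matches in the 250 bases before the annotated start of 7 genes, with the distance from the start in bases on the horizontal axis. The ISRE matches of Igtp, Irgm2, Irgm1, Gbp2, Gbp3 and Gbp7 lie within 64 bases of the start, while that of Gbp5 begins 165 bases before it.

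Before the members are described, a few facts of the arrays bear on them. The median log2 signal of an array was 5.51 to 5.67, and pairs of arrays correlated at 0.898 to 0.968 over all probe sets used. In 46.5% of genes the deposited values were exactly identical on at least 2 arrays, so an SD can be understated where values repeat. Ezh2 read 8.47, 8.08 and 8.42 in Jak2VF_Ezh2KO, 8.87, 9.09 and 8.78 in Jak2VF and 8.48, 8.81 and 8.69 in WT, lowest in the group labelled as lacking it but by only 0.59 on the log2 scale below Jak2VF (adjusted p = 0.411). Y-linked signal was present on 2 arrays, Jak2VF_Ezh2KO replicates 1 and 2, and absent on the other arrays, so the sexes were not balanced. Of 10 stem cell markers 8 were measured. Their mean log2 signal was 7.58 to 7.88 in Jak2VF_Ezh2KO, 7.59 to 7.65 in Jak2VF and 7.84 to 7.86 in WT. This was above the array medians in each group, but every Jak2VF array lay below every WT array. Of the 8 markers 3 were lower in Jak2VF than in WT without overlap, against 2.57% of all genes. These were Mecom (log2 difference -0.71), Procr (-0.64) and Hlf (-0.40), and 0 were higher without overlap, against 3.54% of all genes.

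The 4 IRG genes were higher in both mutant genotypes than in WT on every array, and Gbp3 and Gbp7 were higher on every Jak2VF array than on every WT array, but no member passed the test across all genes. The test was limma on the log2 values with Benjamini-Hochberg adjustment over 22180 genes, and a gene passed at an adjusted p under 0.05. Between Jak2VF and WT no gene of the whole array passed (0% of genes), the smallest adjusted p of any gene was 0.308, and 632 genes were higher and 402 lower at an unadjusted p under 0.05. Between Jak2VF_Ezh2KO and WT 0.0225% of genes passed, and between Jak2VF_Ezh2KO and Jak2VF 0.0451% passed, none of them a member. Counts at an unadjusted p under 0.05 are therefore given as descriptions beside the same share over all genes. As the samples are bulk RNA, a change in the share of cells that express a gene and a change in its RNA per cell cannot be told apart.

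Igtp (probe set 17249980) showed the clearest separation. It read 7.95, 8.10 and 8.54 in Jak2VF_Ezh2KO, 7.95, 8.34 and 8.48 in Jak2VF and 7.18, 7.03 and 7.14 in WT (log2 signal, replicates 1 to 3). The 3 WT arrays lay close together and far below every mutant array, while both mutant genotypes overlapped. Replicate 1 of Jak2VF_Ezh2KO and replicate 1 of Jak2VF hold the same deposited value, 7.94951, which is the lowest mutant reading. The gap to the highest WT array, 0.77, is therefore the same number in both genotypes. Jak2VF averaged 8.26 ± 0.28 and WT 7.12 ± 0.08 (SD, n = 3 each), a log2 difference of 1.14 (2.21-fold, standard error 0.19, 95% interval 0.72 to 1.56, adjusted p = 0.308). By unadjusted p it ranked 9 among all genes in that comparison. Jak2VF_Ezh2KO averaged 8.20 ± 0.31, and its log2 difference from WT was 1.08 (2.12-fold, standard error 0.19, adjusted p = 0.159).

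Irgm2 (probe set 17249990), the neighbour of Igtp in the gene order, gave 8.13, 8.91 and 8.65 in Jak2VF_Ezh2KO, 8.43, 8.40 and 9.14 in Jak2VF and 8.03, 8.06 and 7.66 in WT. All mutant arrays lay above all WT arrays, though replicate 1 of Jak2VF_Ezh2KO was only 0.077 above the highest WT array. The log2 difference was 0.74 for Jak2VF against WT (standard error 0.25, 1.67-fold, adjusted p = 0.924) and 0.65 for Jak2VF_Ezh2KO against WT (standard error 0.25, 1.57-fold, adjusted p = 0.537).

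Irgm1 (probe set 17262202), the IRG protein tied to stem cell quiescence in mice, had another order of the groups. Its signal was 7.82, 7.81 and 7.74 in Jak2VF_Ezh2KO, 7.55 on each of the 3 Jak2VF arrays and 7.52, 7.33 and 6.83 in WT. The arrays fell into 3 steps with no overlap, Jak2VF_Ezh2KO highest, Jak2VF between and WT lowest, although the gap from Jak2VF to the highest WT array was only 0.029. The 3 Jak2VF values are identical to all deposited digits, as many values of this table are, so their SD of 0 is no measure of biological spread. The place of Jak2VF between the other groups thus rests on 1 repeated value, and the standard errors below may be understated. Jak2VF_Ezh2KO lay above WT by 0.56 on the log2 scale (standard error 0.17, 1.48-fold, adjusted p = 0.457), Jak2VF above WT by 0.32 (standard error 0.17, adjusted p = 0.924) and Jak2VF_Ezh2KO above Jak2VF by 0.24 (standard error 0.17, 95% interval -0.13 to 0.62, adjusted p = 0.813).

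Iigp1 (probe set 17350925), the effector of the family, had the largest fold of the members and also a wide spread. Values were 8.40, 8.79 and 8.76 in Jak2VF_Ezh2KO, 8.18, 8.27 and 9.42 in Jak2VF and 8.07, 7.12 and 6.85 in WT. Replicate 3 of Jak2VF stood far above the other Jak2VF arrays and replicate 1 of WT far above the other WT arrays, with no overlap between WT and either mutant genotype. Jak2VF_Ezh2KO averaged 8.65 ± 0.22 and WT 7.35 ± 0.64 (SD, n = 3 each), a log2 difference of 1.30 (2.47-fold, standard error 0.37, adjusted p = 0.441). For Jak2VF, which averaged 8.63 ± 0.69, the log2 difference from WT was 1.28 (2.43-fold, standard error 0.37, adjusted p = 0.924).

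**Figure D2:**
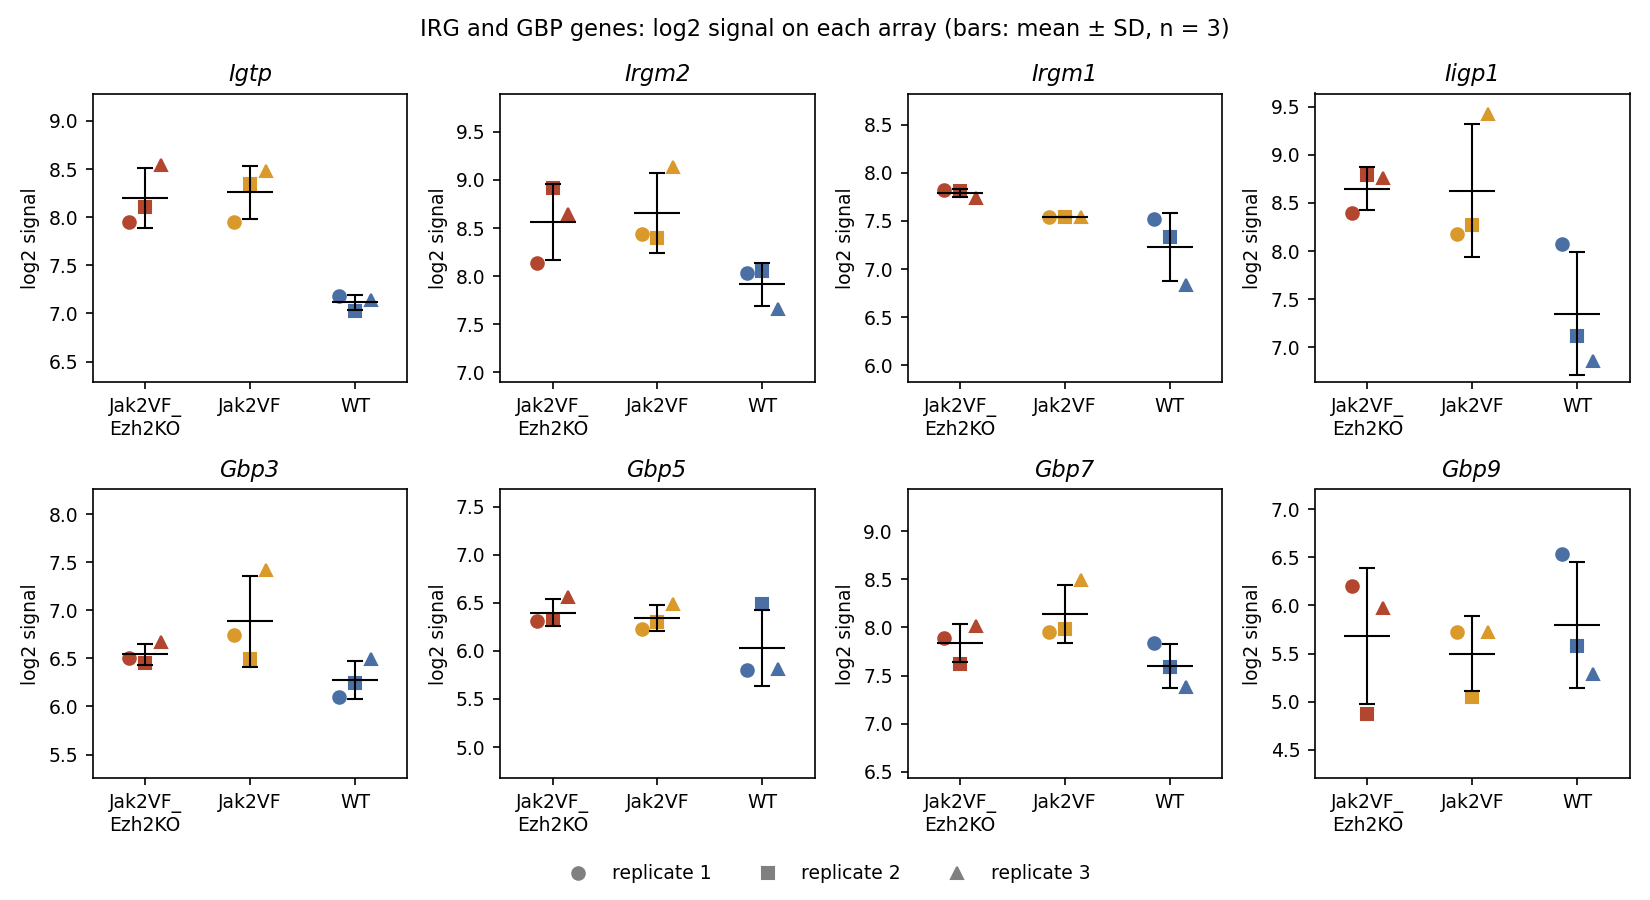
Log2 signal of the 8 measured genes on each of the 9 arrays, in Jak2VF_Ezh2KO, Jak2VF and WT, with a marker shape per replicate and the mean ± SD of each group; each vertical axis spans the same number of log2 units. Igtp, Irgm2, Irgm1 and Iigp1 are higher on every mutant array than on every WT array, while Gbp9 shows no order of the groups.

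Among the GBP genes, Gbp3 and Gbp7 were highest in Jak2VF. Gbp7 (probe set 17403224), whose protein acts with other GBPs in defence against bacteria, read 7.89, 7.63 and 8.01 in Jak2VF_Ezh2KO, 7.95, 7.98 and 8.49 in Jak2VF and 7.84, 7.59 and 7.38 in WT. Jak2VF did not overlap WT, while Jak2VF_Ezh2KO overlapped both other groups. The log2 difference was 0.54 for Jak2VF against WT (standard error 0.19, 1.45-fold, adjusted p = 0.924) and 0.24 for Jak2VF_Ezh2KO against WT (standard error 0.19, adjusted p = 0.742).

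Gbp3 (probe set 17403237), its neighbour in the gene order, read 6.51, 6.45 and 6.67 in Jak2VF_Ezh2KO, 6.75, 6.49 and 7.41 in Jak2VF and 6.10, 6.24 and 6.49 in WT. The separation of Jak2VF from WT rested on 0.00175 log2 units between Jak2VF replicate 2 and WT replicate 3, and Jak2VF replicate 3 stood far above all other arrays. The log2 difference was 0.61 for Jak2VF against WT (standard error 0.22, 1.52-fold, adjusted p = 0.924) and 0.27 for Jak2VF_Ezh2KO against WT (standard error 0.22, adjusted p = 0.754).

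Gbp5 (probe set 17403205), known for promoting assembly of the NLRP3 inflammasome, read 6.31, 6.32 and 6.56 in Jak2VF_Ezh2KO, 6.23, 6.30 and 6.49 in Jak2VF and 5.80, 6.48 and 5.81 in WT. WT replicate 2 lay among the mutant arrays and the other WT arrays lay below all of them, so the groups overlapped. The log2 difference was 0.31 for Jak2VF against WT and 0.37 for Jak2VF_Ezh2KO against WT, each with a standard error of 0.19 (adjusted p = 0.924 and 0.633).

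Gbp9 (probe set 17450448) did not follow the other members. Its signal was 6.20, 4.87 and 5.98 in Jak2VF_Ezh2KO, 5.73, 5.05 and 5.73 in Jak2VF and 6.54, 5.58 and 5.29 in WT. The groups overlapped fully, and within each mutant group replicate 2 was the lowest. The log2 difference was -0.30 for Jak2VF against WT (standard error 0.40, 95% interval -1.19 to 0.59) and -0.12 for Jak2VF_Ezh2KO against WT (standard error 0.40, adjusted p = 0.951), intervals wide enough to hold changes in either direction.

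Set side by side, 5 of the 8 measured members (Igtp, Irgm2, Iigp1, Gbp3 and Gbp7) had an unadjusted p under 0.05 and were higher in Jak2VF than in WT, against 2.85% of all genes, and 6 of 8 (these and Irgm1) did not overlap WT, against 3.54% of all genes. Between Jak2VF_Ezh2KO and WT the same count was 4 of 8, the 4 IRG genes, against 4.54% of all genes at that p and 6.28% without overlap. No member was lower at that p or lower without overlap in either comparison, against 1.81% and 2.57% of all genes for Jak2VF and 4.06% and 6.62% for Jak2VF_Ezh2KO. Both comparisons use the same WT arrays, and in each the difference was positive for 7 of the 8 members, all but Gbp9, against 55.8% of all genes for Jak2VF and 46.5% for Jak2VF_Ezh2KO. All 6 mutant arrays lay above all 3 WT arrays for the 4 IRG genes and for 1.07% of all genes. The members were chosen with earlier results of these data known. Their excess over the shares of all genes is therefore a description and no independent support. The median log2 difference of the members was 0.57 for Jak2VF against WT and 0.46 for Jak2VF_Ezh2KO against WT, beside medians of 0.03 and -0.02 over all genes. With the 2 arrays of Y-linked signal left out, Jak2VF_Ezh2KO is down to replicate 3 alone. Then 6 of the 8 members (the IRG genes, Gbp3 and Gbp7) lay above WT on every remaining mutant array, against 2.02% of all genes. In that fit, where the spread of a lone array is taken from the other groups, the count at an unadjusted p under 0.05 against WT was 2 in Jak2VF_Ezh2KO (Igtp and Iigp1) and 5 in Jak2VF. Sex and array number cannot be told apart in that count.

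Single arrays weighed on the Jak2VF count. Without Jak2VF replicate 3, the highest of all arrays for Irgm2, Iigp1, Gbp3 and Gbp7, only Igtp and Iigp1 kept an unadjusted p under 0.05, and without WT replicate 3 those that did were Igtp, Iigp1 and Gbp3. Averaged over the 8 members after each was centred on its 9-array mean, the arrays stood at 0.11, 0.07 and 0.32 in Jak2VF_Ezh2KO, 0.06, 0.01 and 0.55 in Jak2VF and -0.16, -0.36 and -0.61 in WT. Every mutant array thus lay above every WT array in this mean, with Jak2VF replicate 3 highest and WT replicate 3 lowest. The mean of the 4 IRG genes was 0.08, 0.41 and 0.43 in Jak2VF_Ezh2KO, 0.04, 0.15 and 0.66 in Jak2VF and -0.29, -0.61 and -0.87 in WT. For the 4 GBP genes it was 0.14, -0.27 and 0.22 in Jak2VF_Ezh2KO, 0.08, -0.13 and 0.44 in Jak2VF and -0.02, -0.11 and -0.35 in WT, where the groups overlapped.

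Loss of Ezh2 on the Jak2VF background was compared next. No member differed between Jak2VF_Ezh2KO and Jak2VF at an unadjusted p under 0.05, where 2.91% of all genes were higher and 3.99% lower at that p. Of the 8 members 4 had positive differences, against 41.8% of all genes, with a median of -0.02 beside -0.04 over all genes. The log2 difference of Igtp was -0.06 with a 95% interval of -0.48 to 0.36, that of Irgm2 was -0.09 (-0.65 to 0.47) and that of Iigp1 was 0.02 (-0.80 to 0.85), so changes within these bounds are not excluded. Gbp3 and Gbp7 had the lowest differences, -0.34 (-0.84 to 0.15) and -0.30 (-0.72 to 0.12), and Irgm1 the highest, 0.24, as the only member whose groups did not overlap, against 4.18% of all genes higher and 6.94% lower without overlap. For Irgm1 the Jak2VF side is 1 value repeated on all 3 arrays, so its separation does not rest on 3 distinct readings of that group.

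**Figure D3:**
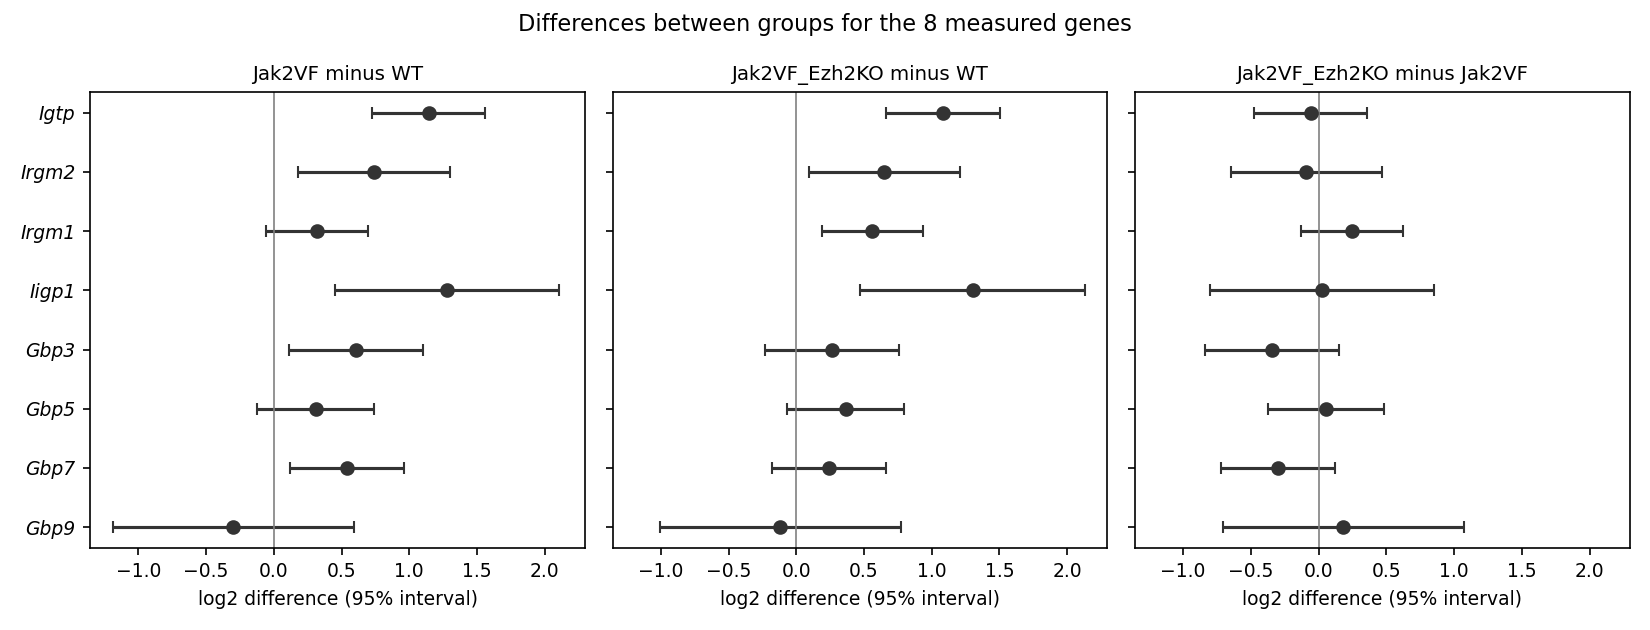
Log2 differences of the 8 measured genes with their 95% intervals, for Jak2VF minus WT, Jak2VF_Ezh2KO minus WT and Jak2VF_Ezh2KO minus Jak2VF. Igtp lies at 1.14 and 1.08 against WT with intervals clear of 0, while every interval between both mutant genotypes includes 0.

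Other members of both families were measured for 12 of 25 listed genes, and 4 more lay only on probe sets with several symbols, Tgtp1, Tgtp2 and Ifi47 among them. Of these 12 genes, 1 was higher and 1 lower in Jak2VF than in WT at an unadjusted p under 0.05, against 2.85% and 1.81% of all genes. In Jak2VF_Ezh2KO 2 were higher and 1 lower than in WT, against 4.54% and 4.06% of all genes. F830016B08Rik, an IRG gene next to Iigp1 in the gene order, read 6.75, 6.25 and 6.78 in Jak2VF_Ezh2KO, 6.25, 5.95 and 7.06 in Jak2VF and 5.01, 5.24 and 6.41 in WT. Only WT replicate 3 overlapped the mutant arrays there, and the log2 differences from WT were 1.04 for Jak2VF_Ezh2KO (adjusted p = 0.525) and 0.86 for Jak2VF (adjusted p = 0.924).

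Gm4951, another IRG gene, differed from WT by 0.78 in Jak2VF_Ezh2KO and by 0.75 in Jak2VF, with values of 8.38, 8.25 and 8.61 in Jak2VF_Ezh2KO, 8.29, 7.44 and 9.40 in Jak2VF and 7.98, 7.36 and 7.54 in WT. Jak2VF replicate 2 lay within the WT range, and the Jak2VF_Ezh2KO arrays lay above it. Of the other GBP genes, Gbp10 was the only one with a 9-array mean (6.83) outside the dimmer 40% of genes, which lie under 5.40. Gbp10 differed from WT by 0.86 in Jak2VF_Ezh2KO (adjusted p = 0.478) and by 0.21 in Jak2VF, and Jak2VF_Ezh2KO stood 0.65 above Jak2VF without overlap (adjusted p = 0.712). Gbp11, Gbp4, Gbp2b, Gbp6 and Gbp8 had means of 3.55 to 5.23, where an array separates levels poorly. Their log2 differences between Jak2VF_Ezh2KO and WT were 0.56 for Gbp11, 0.55 for Gbp4, -0.40 for Gbp2b, -0.43 for Gbp6 and 0.63 for Gbp8. Between Jak2VF and WT they were 0.14 for Gbp11, -0.30 for Gbp4, 0.00 for Gbp2b, -0.36 for Gbp6 and -0.14 for Gbp8. Between Jak2VF_Ezh2KO and Jak2VF they were 0.42 for Gbp11, 0.85 for Gbp4, -0.41 for Gbp2b, -0.08 for Gbp6 and 0.76 for Gbp8, and none of these genes passed after adjustment. The more distant relatives differed between Jak2VF and WT by 0.06 for Irgc1, 0.04 for Irgq, 0.21 for Atl1 and 0.14 for Atl3, the last 2 being atlastins, GTPases that shape the endoplasmic reticulum.

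Genes of the interferon-gamma pathway were measured for 42 of 46 listed genes. At an unadjusted p under 0.05, 9 were higher and 0 lower in Jak2VF_Ezh2KO than in WT, against 4.54% and 4.06% of all genes, and 12 were higher and 0 lower in Jak2VF than in WT, against 2.85% and 1.81%. None passed after adjustment. This list and those that follow were also chosen with earlier results of these data known, so their counts are descriptions. Ifng itself read 4.75 on each Jak2VF_Ezh2KO array, 4.42, 4.48 and 5.03 in Jak2VF and 4.63, 4.86 and 4.75 in WT, with a difference of -0.10 between Jak2VF and WT, and its 9-array mean of 4.71 is also among the dimmer 40% of genes. The receptor chains stood at 0.17 (Ifngr1) and 0.51 (Ifngr2), the kinases at 0.03 (Jak1) and 0.25 (Jak2), and the feedback inhibitor Socs1 at -0.0012 in the same comparison. In Jak2VF_Ezh2KO, Jak2 stood at -0.46 relative to Jak2VF (adjusted p = 0.539).

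The transcription factors of the pathway differed among themselves. Irf8, which is induced by interferon-gamma in myeloid cells, read 6.71, 7.10 and 6.97 in Jak2VF_Ezh2KO, 6.69, 6.78 and 6.82 in Jak2VF and 5.89, 6.41 and 5.55 in WT. Every mutant array lay above every WT array, with log2 differences from WT of 0.98 in Jak2VF_Ezh2KO (adjusted p = 0.253) and 0.81 in Jak2VF (adjusted p = 0.924). Irf1 differed by 0.30 between Jak2VF and WT. The 4 other pathway genes of smallest p belong to antigen presentation: in Jak2VF the class II genes H2-Ab1 and H2-Eb1 stood 1.38 and 1.002 above WT (adjusted p = 0.924 and 0.308), Nlrc5, the activator of MHC class I genes, by 0.70 (adjusted p = 0.696) and the peptide transporter Tap1 by 0.67 (adjusted p = 0.924). Of the 42 pathway genes 35 had positive differences between Jak2VF and WT, against 55.8% of all genes, and 7 had negative ones. The negative ones were Cxcl10 at -0.30, Cxcl11 and Cxcl9 each at -0.16, Ido1 at -0.15, Ifng at -0.10, Ciita at -0.07 and Socs1 at -0.0012.

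**Figure D4:**
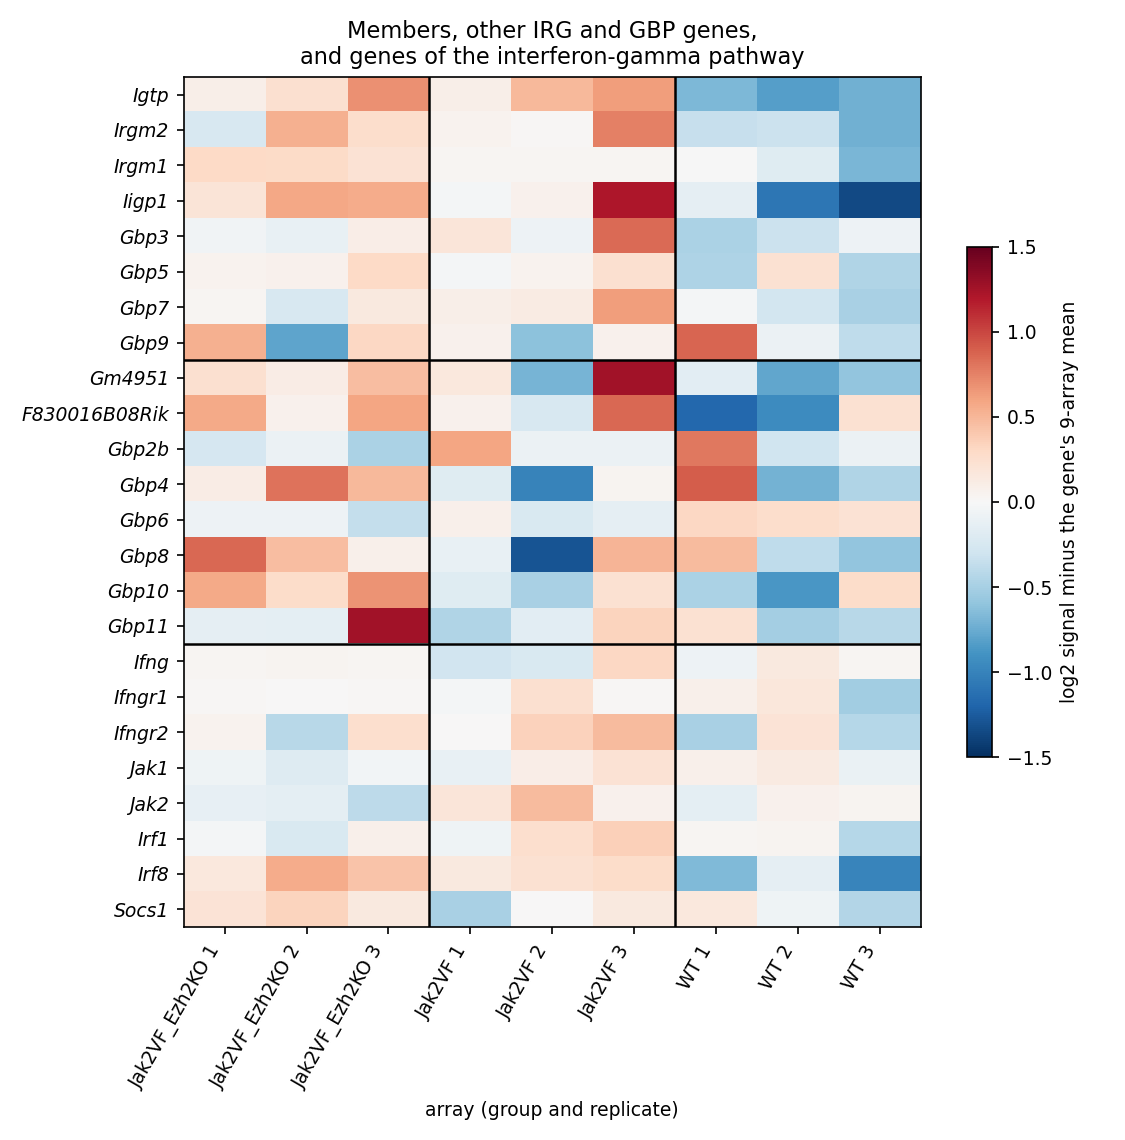
Log2 signal of each gene minus its 9-array mean on each array, in Jak2VF_Ezh2KO, Jak2VF and WT, for the 8 members (top block), other IRG and GBP genes (middle block) and genes of the interferon-gamma pathway (bottom block). The IRG members and Irf8 are below their mean on the WT arrays as a group, while Ifng, Jak1 and Socs1 show no such contrast.

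Between Jak2VF_Ezh2KO and Jak2VF the pathway list had 1 of 42 genes higher and 6 lower at an unadjusted p under 0.05, against 2.91% and 3.99% of all genes, with Psmb9, an immunoproteasome subunit, at -0.63 (adjusted p = 0.395) and the chemokine gene Cxcl10 at 0.66 (adjusted p = 0.512). Of 25 measured type I interferon genes 6 were higher and 0 lower at that p, against the same shares of all genes, and the difference between both lists was not tested. Among the 6 were Ifit1 at 0.82 (adjusted p = 0.253) and Rtp4 at 0.64. Against WT, 11 of the 25 were higher in Jak2VF_Ezh2KO (4.54% of all genes) and 4 in Jak2VF (2.85% of all genes) at the same p, none after adjustment. Zbp1, a nucleic acid sensor induced by interferon, differed from WT by 0.99 in Jak2VF_Ezh2KO and by 0.53 in Jak2VF. Of 17 genes that act with the GTPases, from autophagy factors to inflammasome proteins, 2 were higher in Jak2VF_Ezh2KO than in WT and 1 in Jak2VF, against 4.54% and 2.85% of all genes. Casp4, the caspase that GBPs bring to bacterial lipopolysaccharide, differed by 0.72 between Jak2VF and WT and by -0.56 between Jak2VF_Ezh2KO and Jak2VF.

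**Figure D5:**
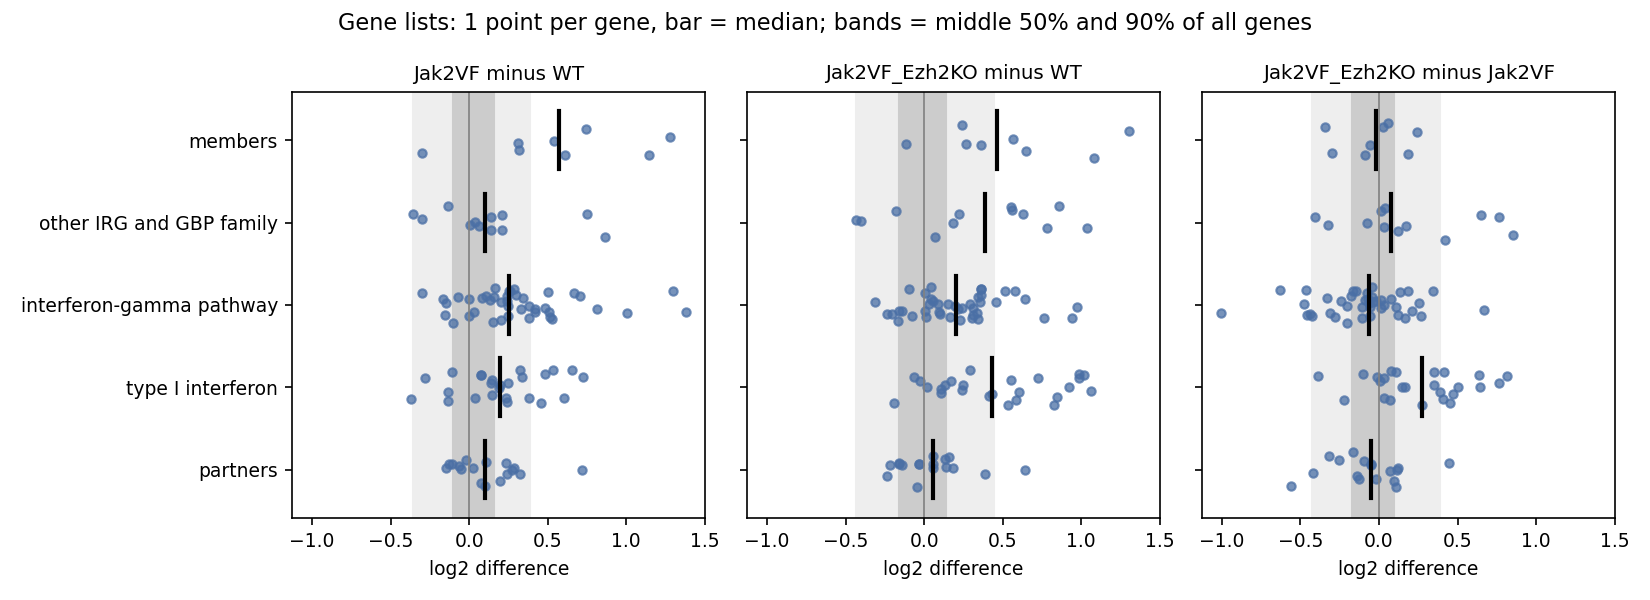
Log2 difference of every measured gene of the 5 lists (1 point per gene, black bar the median), for Jak2VF minus WT, Jak2VF_Ezh2KO minus WT and Jak2VF_Ezh2KO minus Jak2VF, over bands that hold the middle parts of all 22180 genes. The members' median lies at 0.57 and 0.46 against WT and at -0.02 between both mutant genotypes, where type I interferon genes have a median of 0.27.

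Of all other genes, Usp18, which removes the ubiquitin-like ISG15 and limits type I interferon signalling, had the pattern most like the mean of the 8 members over the 9 arrays (Pearson r = 0.974). It read 7.06, 6.82 and 7.07 in Jak2VF_Ezh2KO, 6.74, 6.88 and 7.32 in Jak2VF and 6.52, 6.24 and 6.00 in WT. Every mutant array lay above every WT array, with log2 differences from WT of 0.73 in Jak2VF_Ezh2KO and 0.72 in Jak2VF. Septin1 (0.934), Zfp974 (0.929), Tspan17 (0.928) and Gpr119 (0.923) followed. For Irgm1 alone the closest were Sntb2 (0.976), Saysd1 (0.961), Ppp1r17 (0.939), Nt5m (0.929) and Trps1 (0.927). Like Irgm1, Ppp1r17 (5.28) and Trps1 (5.53) had 1 identical value on all 3 Jak2VF arrays. What repeated values add to their correlation was not tested. These values describe 9 arrays that share their groups, and the genes were picked as the highest of all 22180.

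Markers of other cell types moved with some groups. For 12 monocyte and macrophage markers the mean log2 signal was 5.88 to 6.30 in Jak2VF_Ezh2KO, 6.27 to 6.55 in Jak2VF and 5.95 to 6.17 in WT. In this mean all Jak2VF arrays lay above all WT arrays. The lowest of all arrays, Jak2VF_Ezh2KO replicate 2, was also the lowest for Ly6c2 (3.53) but the highest for Cd14 (5.47) and Fcgr1 (6.01). Between Jak2VF and WT 8 of the 12 markers had positive and 4 negative differences, against 55.8% of all genes positive. They ran from -0.24 to 1.25, the last for Ly6c2 with a standard error of 1.03. None of the 12 was free of overlap, against 3.54% of all genes higher and 2.57% lower. For 13 of 14 T and NK cell markers the mean was 6.03 to 6.35 in Jak2VF_Ezh2KO, 5.61 to 5.74 in Jak2VF and 5.62 to 5.87 in WT, higher in Jak2VF_Ezh2KO than in both other groups. That list went both ways between Jak2VF_Ezh2KO and Jak2VF, with Il7r at 1.95, Ccl5 at 1.77, Klrd1 at 1.69 and Gzmb at 0.84 but Cd3e at 0.09, Cd8a at -0.05, Cd4 at -0.39 and Nkg7 at -0.75. Cd34 and Flt3 (the gene of CD135), which the gate sorted against, and Cd48, a marker of more mature progenitors, averaged 8.72 to 8.91 in Jak2VF_Ezh2KO, 8.84 to 9.27 in Jak2VF and 8.13 to 9.01 in WT, and Cd48 read 2.30-fold higher in Jak2VF than in WT (adjusted p = 0.924).

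Neutrophil markers, 8 in number, averaged 5.67 to 6.92 in Jak2VF_Ezh2KO, 5.42 to 5.87 in Jak2VF and 5.28 to 5.84 in WT, and 7 B cell markers averaged 5.05 to 6.30 in Jak2VF_Ezh2KO, 5.11 to 5.32 in Jak2VF and 5.18 to 5.39 in WT. In both lists replicate 3 of Jak2VF_Ezh2KO was the highest array. Dendritic cell markers (7) lay at 5.92 to 6.12 in Jak2VF_Ezh2KO, 5.80 to 6.20 in Jak2VF and 5.81 to 6.13 in WT, and endothelial and stromal markers (6) at 5.66 to 5.89 in Jak2VF_Ezh2KO, 5.65 to 5.77 in Jak2VF and 5.79 to 5.91 in WT. An array signal has no true zero, so absence of such cells cannot be read from these levels, and the part of the marker shifts in the members' differences was not tested.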

How the data were processed

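Expression was measured on 9 arrays of sorted LT-HSC, 3 for each of 3 genotypes, from 10 ng of RNA each amplified with the Ovation Pico WTA kit, per the labels' protocols. The deposited table holds log2 values already processed by the authors; Partek 6.6 is named in the submitters' processing notes, while background correction, normalization and genome build are unstated in the labels. The values were used without further normalization. Of 41345 probe sets, 23521 had 1 gene symbol in the platform annotation, 1814 had several and 16010 were unnamed here; the first kind gave 22180 genes, the probe set with the highest mean being kept for 1082 genes with more than 1. Groups came from the labels. All genes were fitted together in limma 3.58.1 (R 4.3.3; lmFit and eBayes, 6 residual and 3.83 prior degrees of freedom) with 3 contrasts, and p-values were adjusted by Benjamini-Hochberg over all genes of a contrast. Intervals are 95% intervals of that fit, fold changes are powers of 2 of log2 differences, and the adjusted p-values of named genes come from limma. The fit was tested on simulated data.

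The members and gene lists were chosen with earlier results of these data known. The text names all members and measured relatives, fixed genes of the interferon-gamma pathway (ligand, receptor, Jak1, Jak2, Irf1, Irf8, Socs1), up to 4 further pathway genes and up to 2 genes of the other lists with the smallest p in a contrast, and the 5 genes of highest correlation. Mecom, Procr, Hlf, Cxcl9, Cxcl11, Ido1, Ciita, Cd48, Ly6c2, Cd14, Fcgr1 and the T and NK cell genes were named after their values were seen. Promoter letters were searched with Python 3.11.15 in RefSeq windows of GRCm38.p6, whose gene table gave the order of genes; identity is from global alignment in Biopython 1.88. The labels state no pairing by replicate number. Deviations of same-numbered arrays correlated at -0.23 to 0.48, with 2 of 9 pairs over 0.1. Both were between Jak2VF and WT, at 0.21 for replicate 1 and 0.48 for replicate 2. Arrays of unlike number in these groups correlated at -0.50 to 0.33, the highest being Jak2VF replicate 1 with WT replicate 3. With 3 arrays a group such correlations cannot exclude a pairing. The precision is limited by 3 arrays a group. Alternatives covered scaling, variance model, filters, probe set rule, sex, array weights, a replicate block and leaving out each array.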

Additional observations from a re-analysis of the deposited data

How the results depend on the processing

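No member passed at an adjusted p under 0.05 under any of the alternatives; over the 480 member values recomputed (24 differences) the lowest adjusted p was 0.0879, for Igtp in Jak2VF_Ezh2KO against WT. All 280 values of the members other than Gbp9 against WT kept their direction. Igtp ranged from 0.91 to 1.43 in Jak2VF_Ezh2KO against WT and from 1.03 to 1.30 in Jak2VF against WT. The members higher at an unadjusted p under 0.05 numbered 4 to 6 in Jak2VF against WT, and 2 to 6 with 1 array left out, beside 5. In Jak2VF_Ezh2KO against WT they numbered 2 with sex as a covariate and 2 without both arrays that carried Y-linked signal, settings that both rest that group on replicate 3 alone and give the same estimates, and 3 to 5 with 1 array left out, beside 4. Between the mutant genotypes the number was 0 throughout.

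Over all genes, 10 passed between Jak2VF_Ezh2KO and Jak2VF. That count was 0 with ordinary least squares, with both groups alone, with the replicate block and without both Y-linked arrays, 4 after median centring, 23 without the dimmer 40% of genes, 23 at an adjusted p under 0.1 and 0 to 17 with 1 array left out. Against WT 5 passed in Jak2VF_Ezh2KO, and the count was 0 with ordinary least squares, with both groups alone, with the replicate block and without both Y-linked arrays, 3 after median centring and over every probe set, 10 with an intensity trend and robust variance, 14 with array weights, 13 at an adjusted p under 0.1 and 0 to 14 with 1 array left out. In Jak2VF against WT it was 0 throughout. Whether the replicate numbers pair the samples is not known. No member passed with the replicate block, as none did without it.

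Some differences turned sign, and not all of them were close to 0. In Jak2VF against WT they included Gbp9 and Gbp4, each at -0.30 in the main fit, and Gbp10 at 0.21. Between Jak2VF_Ezh2KO and Jak2VF, Igtp was 0.29 with sex as a covariate and 0.29 without both Y-linked arrays, and Iigp1 was -0.13 with array weights. Gbp9 in Jak2VF_Ezh2KO against WT was 0.20 with array weights and 0.18 both with sex as a covariate and without both Y-linked arrays. In Jak2VF against WT, Jak1 was -0.043 after quantile normalization, Socs1 0.033 after median centring and 0.071 with array weights, and Gbp8 0.11 with array weights. With 1 array left out, the range between the mutant genotypes was -0.23 to 0.066 for Igtp, -0.27 to 0.15 for Irgm2, -0.20 to 0.42 for Iigp1, -0.026 to 0.13 for Gbp5 and -0.075 to 0.59 for Gbp9. For Gbp9 it was -0.38 to 0.29 in Jak2VF_Ezh2KO against WT and -0.56 to 0.068 in Jak2VF against WT. For other genes in Jak2VF against WT it was -0.045 to 0.53 for Gbp10, -0.071 to 0.37 for Gbp11, -0.22 to 0.33 for Gbp2b, -0.61 to 0.20 for Gbp4, -0.54 to 0.36 for Gbp8, -0.050 to 0.18 for Irgc1 and -0.022 to 0.074 for Irgq. For pathway genes it was -0.30 to 0.0083 for Ifng, -0.051 to 0.30 for Ifngr1, -0.045 to 0.12 for Jak1 and -0.16 to 0.19 for Socs1. The causes of these changes were not tested. Some alternatives leave a smaller number of arrays or genes, and the part of that number in the changes was not tested either.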
